A study of Mus musculus with 3 samples.

Results

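Among the genes measured in single cells of mouse skin are 39 that follow the phases of the cell cycle, out of 31053 genes listed in the count matrices. They were taken by gene symbol, and all 39 symbols matched a row. 15 of them serve DNA synthesis (S phase), 22 serve mitosis and cytokinesis, and Stmn1 and Hmgb2, which are high in dividing cells in general, were put on neither phase list. The skin came from C57BL/6 mice of post natal age 7 weeks, in a study of hair growth under Shi-Bi-Man. The labels give 1 library for each of 3 agents, control, Shi-Bi-Man and metformin, and they state no dose, route, number of animals, skin site or stage of the hair cycle. The counts described are those of control and metformin, whereas expression under Shi-Bi-Man was not analysed here. With 1 library per agent no difference between agents could be tested, and agent, animal, skin site and hair cycle stage cannot be told apart.

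A dividing cell first copies its DNA and then separates the copies. The genes of these steps are switched on in order: the E2F factors open the expression of replication genes at the entry to S phase, and a later programme bound to the MuvB core, with B-Myb and Foxm1, drives the mitotic genes. In skin, the basal layer of the epidermis, the outer root sheath, the base of the sebaceous gland and above all the hair matrix at the foot of a growing follicle are known for division, and the cells above the basal layer leave the cycle as they differentiate. T cells and Langerhans cells of the epidermis are also known to renew themselves in place.

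The 2 phase lists differ in the letters of their promoters. As examples 5 promoters were printed, that of Cdk1 being an exception that carries letters frequent on either list. They run from 250 bases before to 50 bases after the start of the gene (RefSeq, GRCm38.p6) and were read 5' to 3' on the strand of the gene. Pclaf (chr9:65890073-65890372, plus strand) and Mcm5 (chr8:75109259-75109558, plus strand) stand for S phase. Cdk1 (chr10:69352863-69353162, minus strand), Ube2c (chr2:164769679-164769978, plus strand) and Cenpa (chr5:30666636-30666935, plus strand) stand for mitosis. They were picked after the matches were known. Capitals mark matches to the E2F letters TTTNNCGC, to CCAAT and to the CHR element (cell cycle genes homology region, TTTGAA or TTCGAA), each on either strand.
Pclaf: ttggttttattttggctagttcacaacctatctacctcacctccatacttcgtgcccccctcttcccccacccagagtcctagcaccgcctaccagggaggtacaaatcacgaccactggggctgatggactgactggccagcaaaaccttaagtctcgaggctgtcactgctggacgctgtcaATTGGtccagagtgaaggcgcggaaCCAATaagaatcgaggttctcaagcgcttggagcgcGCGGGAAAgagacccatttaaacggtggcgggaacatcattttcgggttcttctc
Mcm5: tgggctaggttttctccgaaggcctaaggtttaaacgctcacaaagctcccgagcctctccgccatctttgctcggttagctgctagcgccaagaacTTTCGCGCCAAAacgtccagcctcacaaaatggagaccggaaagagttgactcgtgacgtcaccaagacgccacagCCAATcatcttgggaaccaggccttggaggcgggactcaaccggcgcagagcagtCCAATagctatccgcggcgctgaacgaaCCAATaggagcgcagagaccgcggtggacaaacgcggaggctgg
Cdk1: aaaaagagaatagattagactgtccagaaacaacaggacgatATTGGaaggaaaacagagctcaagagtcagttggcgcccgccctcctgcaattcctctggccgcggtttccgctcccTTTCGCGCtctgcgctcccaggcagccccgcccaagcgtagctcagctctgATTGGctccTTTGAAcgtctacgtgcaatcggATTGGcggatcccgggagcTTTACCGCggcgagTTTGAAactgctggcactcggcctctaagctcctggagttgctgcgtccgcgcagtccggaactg
Ube2c: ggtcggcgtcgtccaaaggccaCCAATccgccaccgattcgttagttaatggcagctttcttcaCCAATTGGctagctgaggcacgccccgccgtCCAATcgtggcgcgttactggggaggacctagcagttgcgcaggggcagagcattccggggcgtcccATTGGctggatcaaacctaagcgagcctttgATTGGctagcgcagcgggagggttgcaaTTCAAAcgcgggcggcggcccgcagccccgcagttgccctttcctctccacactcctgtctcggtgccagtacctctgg
Cenpa: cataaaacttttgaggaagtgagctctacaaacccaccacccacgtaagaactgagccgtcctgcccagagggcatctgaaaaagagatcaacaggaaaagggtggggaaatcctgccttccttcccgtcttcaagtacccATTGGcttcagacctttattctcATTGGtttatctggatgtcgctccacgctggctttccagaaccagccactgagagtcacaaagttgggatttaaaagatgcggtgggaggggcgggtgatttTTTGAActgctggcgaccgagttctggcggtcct
In Mcm5, 2 E2F matches on opposite strands overlap, and in Ube2c CCAAT matches of both strands overlap. Promoters were listed for 33 of the 39 genes. The E2F letters were present in 8 of 13 S phase promoters and in 1 of 19 mitotic promoters, that of Cdk1, against 5.27% of all 27025 promoters in the table. CHR letters were present in 2 of 13 S phase and 15 of 19 mitotic promoters, against 19.4% of all. CCAAT was frequent on both lists, with 10 of 13 and 16 of 19 promoters against 37.9% of all, and CCAAT and CHR stood together in 14 of 19 mitotic promoters against 7.70% of all. The promoters of Dut, Birc5 and Nusap1 held none of the 3 motifs in this window. A match is a description of letters and says nothing of binding.

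The control library held 12108 barcodes and the metformin library 12092, of which 10990 and 10778 were kept as cells. The cells were deeper in metformin, with a median of 6621 unique molecular identifiers (UMIs, each counting 1 captured transcript) against 4158.5 in control. Both libraries shared 41 barcodes (0.339% of the smaller). The 39 genes took 96830 UMIs in control and 342700 in metformin. Cells were clustered without 269 listed cell cycle and histone genes, the 39 among them, so that the genes described did not enter the clustering. Unlisted genes that vary with the cycle may remain, and doublets were called on all genes. 32 of 33 clusters were named from marker genes, and the names are written X-like because they rest on markers alone. Where shares of cells are given, each cell was thinned at random to 1500 UMIs, which 9909 control and 10289 metformin cells had, and a cell was counted for a phase when it held UMIs of at least 2 genes of that list. Levels are given as CPM, the UMIs of a gene per 1000000 UMIs of all genes, both summed over a class. Since the protocol reads transcript ends, levels were compared between classes and libraries for the same gene and not between genes. Intervals are 95% exact intervals and cover counting error only.

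Division was concentrated in a few classes of both libraries. In basal epidermis-like cells, named from Krt5 and Krt14, 13.9% (12.4 to 15.5) of 1924 control cells and 13.2% (12 to 14.4) of 3037 metformin cells counted for S phase. For mitosis the shares were 13.8% (12.3 to 15.4) in control and 19.1% (17.7 to 20.5) in metformin. Of the cells that counted for mitosis, 42.1% in control and 44.3% in metformin also counted for S phase. Spinous epidermis-like cells, which express Krt1 and Krt10 and lie above the basal layer, were at 0.581% and 1.21% for S phase and at 0.747% and 1.82% for mitosis in the same order. The hair follicle stem or outer root sheath-like class, named from Lhx2 and Sox9, had S phase shares of 23.2% (17.9 to 29.3) of 224 control cells and 24.9% (21.6 to 28.4) of 648 metformin cells. Its mitotic shares were 15.6% (11.1 to 21.1) and 18.1% (15.2 to 21.2). Sebaceous gland-like cells counted for S phase in 20.4% (14.5 to 27.4) of 162 control cells and in 30.1% (22.9 to 38.0) of 153 metformin cells, and for mitosis in 15.4% and 21.6%.

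The highest shares were found in the inner root sheath-like class, named from Krt25, Krt28, Krt71 and Krt27. The hair matrix factors Msx2 and Dlx3 and the cortex keratin Krt35 were also among its leading genes, and the name was not stable. With cell cycle genes kept in the clustering, a cluster of 1236 cells was named hair matrix-like and one of 306 cells inner root sheath-like, and at resolution 2 these clusters held 956 and 605 cells. With the metformin library clustered on its own, clusters of 977, 440 and 123 cells were named hair matrix-like, hair cortex or cuticle-like and inner root sheath-like. Under each of these settings the largest of the clusters given was named hair matrix-like, so the class name is used below as a label only. Under the main settings the inner root sheath-like class held 1532 metformin cells and 31 control cells. Of 1520 metformin cells deep enough, 68.8% (66.4 to 71.1) counted for S phase and 53.2% (50.6 to 55.7) for mitosis. A cell could count for both phases, and 80.3% of those that counted for mitosis also counted for S phase. The 2 shares are therefore not those of separate cells. Of the 29 control cells, 65.5% (45.7 to 82.1) counted for S phase and 41.4% (23.5 to 61.1) for mitosis. The intervals of both libraries overlapped, and the libraries differed in the number of these cells.

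Among immune classes, T cell-like cells, which express Cd3g and Trdc, counted for S phase in 12.9% (10.4 to 15.8) of 619 control cells and in 17.0% (14.1 to 20.2) of 630 metformin cells, and for mitosis in 10.2% (7.91 to 12.8) and 11.9% (9.48 to 14.7). A T cell-like cluster of 94 cells stood apart with a median of 13594 UMIs and with keratin levels of Krt14 of 11158 CPM in control against 8823 CPM in metformin, and its mitotic shares were 31.0% and 27.8%. The part of these keratin transcripts in the shares was not tested. Without it, the mitotic share of the class was 8.02% (5.91 to 10.6) in control and 10.9% (8.55 to 13.7) in metformin. Langerhans cell-like cells, with Cd207, had mitotic shares of 13.2% (7.00 to 21.9) of 91 control cells and 12.5% (6.41 to 21.3) of 88 metformin cells. Their Krt14 level was 5397 CPM in control against 3358 CPM in metformin, with 14385 and 12056 CPM in the larger basal epidermis-like cluster, and the part of keratinocyte transcripts in their shares and levels was not tested. Dendritic cell-like cells were at 4.66% of 343 cells and 9.24% of 238 cells, and macrophage-like cells at 4.19% of 191 and 5.88% of 119. In melanocyte-like cells, of which only 20 control and 38 metformin cells were deep enough, 10% and 18.4% counted for mitosis.

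Granular epidermis-like and vascular smooth muscle or pericyte-like cells, which are not known for division, were set beside these classes at the same 1500 UMIs. Of 126 granular control cells, 1 counted for S phase (0.794%) and none for mitosis, with an exact upper bound of 2.89%. The metformin library had only 25 such cells, of which 2 counted for mitosis. In vascular smooth muscle or pericyte-like cells the S phase shares were 3.25% (1.06 to 7.41) of 154 control cells and 5.36% (2.48 to 9.93) of 168 metformin cells. Their mitotic shares were 0 of 154 (upper bound 2.37%) and 2.38% (0.652 to 5.98). Fibroblast-like cells had S phase shares of 2.42% (1.93 to 2.98) of 3476 control cells and 4.09% (3.12 to 5.27) of 1392 metformin cells, and dermal papilla-like cells of 4.31% and 4%. The fibroblast-like S phase shares lay below those of vascular smooth muscle or pericyte-like cells of the same library and, in control, above those of granular and spinous epidermis-like cells. The part of free RNA in these low shares was not tested. The mitotic share of fibroblast-like cells was 0.518% (0.307 to 0.817) in control and 2.44% (1.70 to 3.40) in metformin. In the larger cluster of vascular smooth muscle or pericyte-like cells, Krt14 stood at 57.3 CPM in control against 1149 CPM in metformin, and the part of such transcripts in their shares was not tested.

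**Figure D1:**
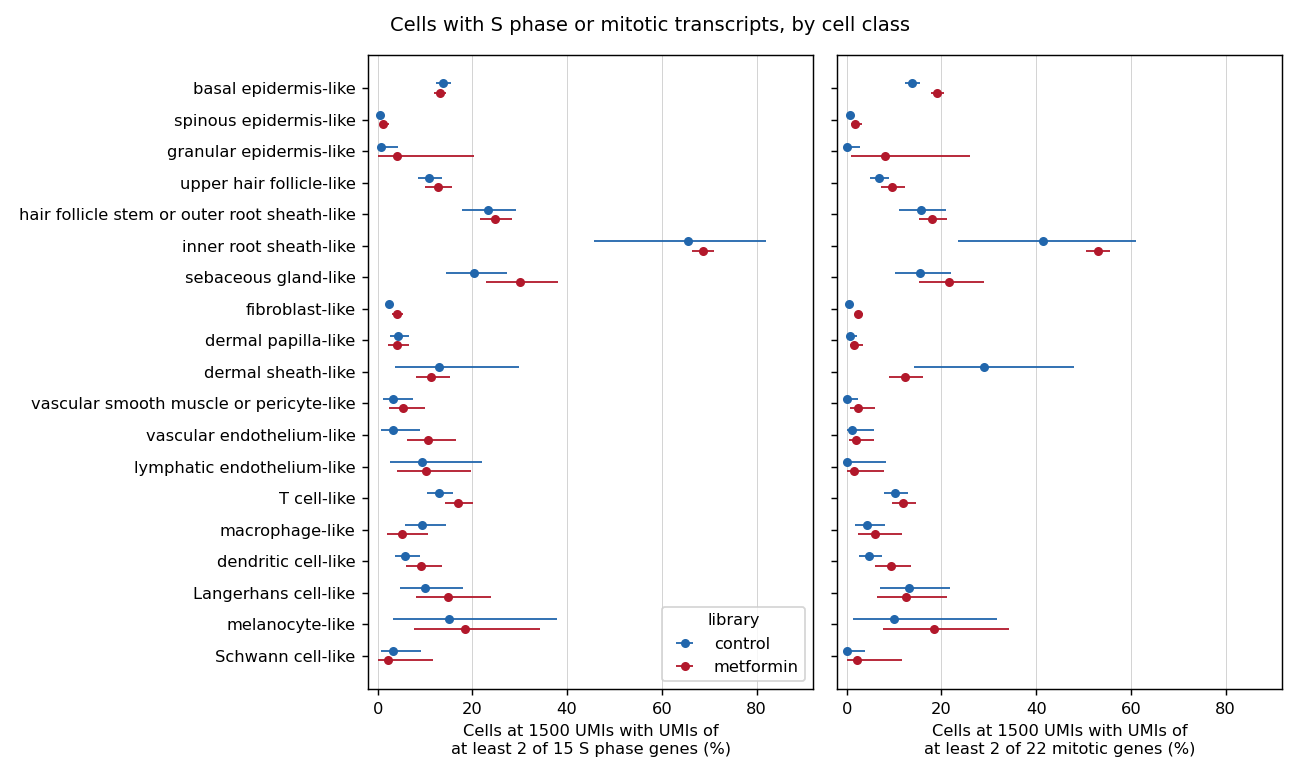
Share of cells (%, with 95% exact binomial intervals) that hold UMIs of at least 2 of 15 S phase genes (left) or 2 of 22 mitotic genes (right) after thinning to 1500 UMIs, for 19 cell classes in the control (blue) and metformin (red) libraries. Inner root sheath-like cells, a name that was not stable, stand highest, at 68.8% for S phase and 53.2% for mitosis in metformin. Spinous epidermis-like cells lie under 2% in all 4 values.

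Named classes were not uniform. The upper hair follicle-like class, with a mitotic share of 6.73% in control and 9.48% in metformin, was made of 2 unlike clusters. In the cluster led by Cst6, Defb6 and Krt79, mitotic shares reached 0.528% of 379 control cells and 0.658% of 304 metformin cells. In the cluster led by Vsnl1 and Sostdc1 they were 16.3% of 245 and 20% of 255. Basal epidermis-like cells also fell into a cluster with Krt15 and Col17a1 among its leading genes, with mitotic shares of 17.3% and 22.5%, and a cluster led by Clca3a2 and Ccl20, with 4.12% and 7.31%. Among fibroblast-like clusters, that led by Coch and Dkk2 was highest, with 1.83% of 711 control cells and 5.80% of 379 metformin cells, and the other 4 fibroblast-like clusters reached at most 1.73%. Of the dermal papilla-like cells, the control cells lay mostly in the cluster led by Slc26a7 and Notum, and the metformin cells mostly in that led by Hhip and Wif1. The dermal sheath-like class had 31 cells in control, of which 29.0% (14.2 to 48.0) counted for mitosis, and 12.2% (8.90 to 16.2) of 336 cells in metformin.

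Where the transcripts came from followed these shares and the number of cells. These UMIs were not thinned, so their split also follows the depth per cell. In control the median was 8644 UMIs in basal epidermis-like cells and 2684.5 in fibroblast-like cells. Of the mitotic UMIs of the control library, 60.3% were in basal epidermis-like cells, which were 17.6% of its cells. In metformin, basal epidermis-like cells were 28.2% of the cells and held 38.5% of the mitotic UMIs, while inner root sheath-like cells were 14.2% of the cells and held 39.5%. For S phase, basal epidermis-like cells held 42.8% of the UMIs in control and 20% in metformin, and inner root sheath-like cells held 2.89% and 55.7%. Fibroblast-like cells, 37.3% of the control cells, held 3.65% of the mitotic UMIs there.

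Cells that counted for mitosis were large in UMIs. Their median was 11780 UMIs in control and 11727 in metformin, against 4457.5 and 5909 in cells that counted for neither phase. More than 3000 genes were detected in 52.6% of the mitotic cells of control and in 54.8% of those of metformin, against 10.6% and 9.10% of the cells of neither phase. In basal epidermis-like cells alone these shares were 63.9% and 56.2% of the mitotic cells. An upper limit of 3000 genes per cell, often set to drop doublets, would therefore have removed most mitotic cells of this class.

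The levels of most single genes were also highest in these classes. In metformin, 16 classes had at least 50 cells deep enough. Over these, all 15 S phase genes and 20 of 22 mitotic genes were highest in the inner root sheath-like class, whose name was not stable. The exceptions, Anln and Prc1, which act at the cleavage furrow and the spindle midzone, were highest in basal epidermis-like cells. In control, where the inner root sheath-like class was too small to be ranked, 12 of 15 S phase genes were highest in the hair follicle stem or outer root sheath-like class. Of the 22 mitotic genes, 9 were highest in basal epidermis-like, 7 in hair follicle stem or outer root sheath-like, 4 in Langerhans cell-like and 2 in T cell-like cells. Granular epidermis-like cells were lowest for 11 of 15 S phase genes in control. Schwann cell-like cells were ranked lowest there for 15 of 22 mitotic genes, but held only 12 mitotic UMIs. Classes with equal levels were not told apart in this ranking. Summed over the list, mitotic genes were at 43.0 CPM in Schwann cell-like cells of control. They were at 21.0 CPM in granular epidermis-like and 15.4 CPM in vascular smooth muscle or pericyte-like cells. Stmn1, which destabilises microtubules, was highest in Schwann cell-like cells of control, of which 3.26% of 92 counted for S phase and none for mitosis. Cdc6 was highest in macrophage-like cells of control, whose S phase share was 9.42% (5.68 to 14.5) of 191 cells. It had only 139 UMIs in all control cells together, so its order of classes rests on few counts.

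**Figure D2:**
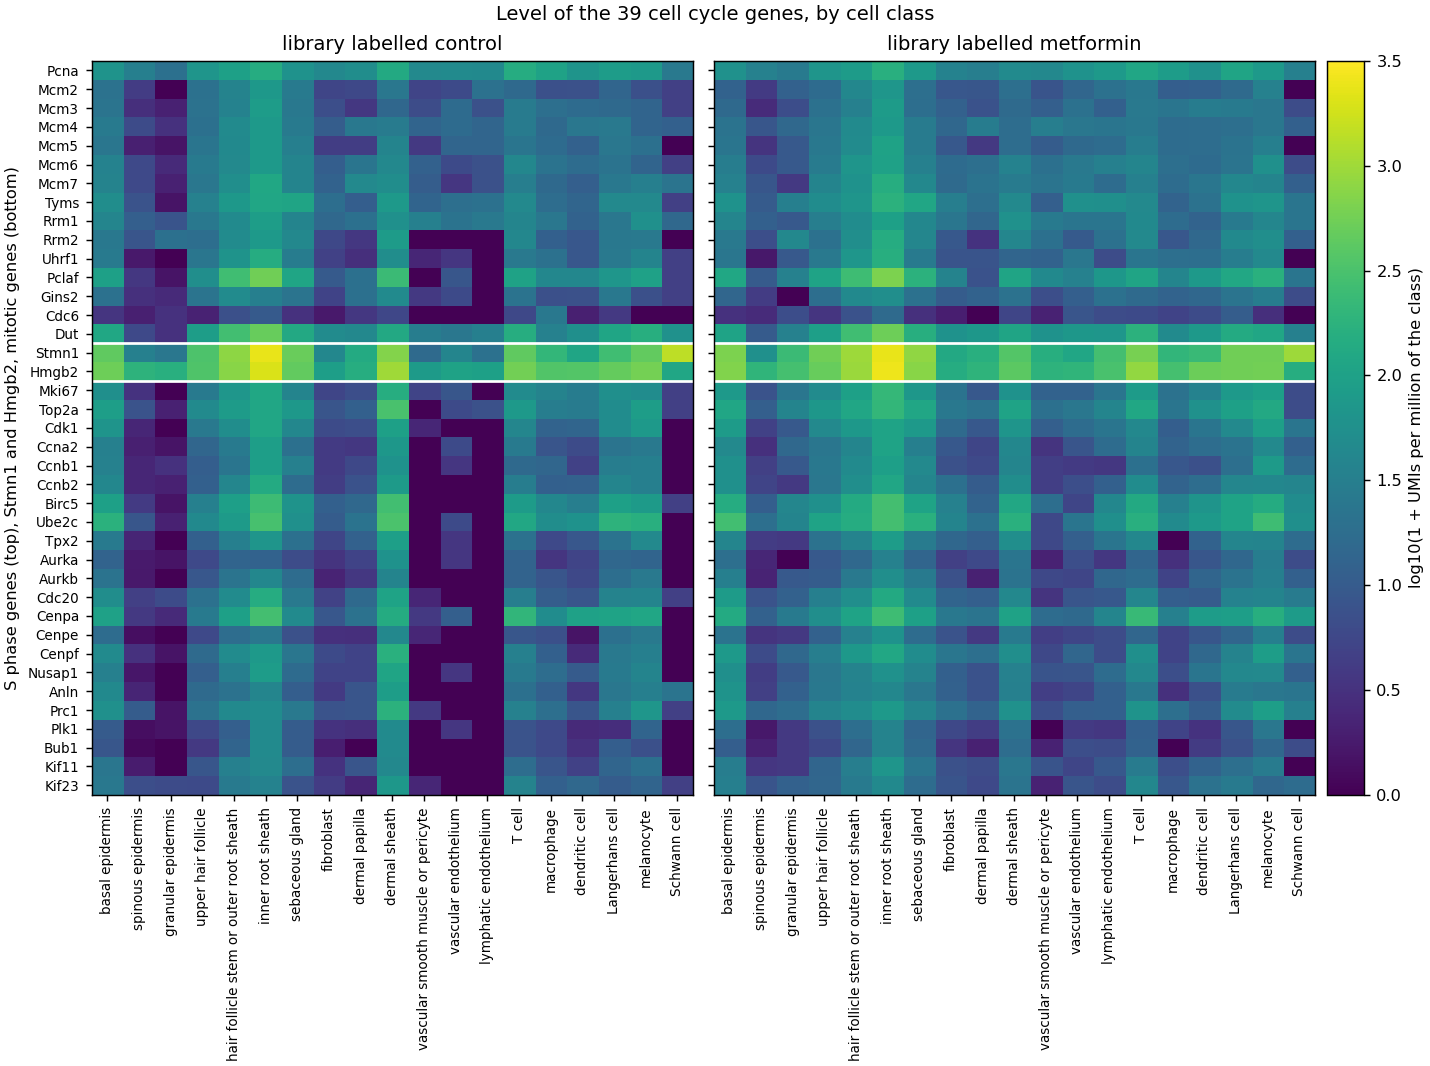
Level of each of the 39 genes (rows, grouped as S phase, neither list and mitotic) in 19 cell classes (columns) of the libraries labelled control (left) and metformin (right), as log10 of 1 plus CPM. The inner root sheath column is brightest in metformin, where Pclaf reached 639 and Ube2c 285 CPM, and the spinous and granular columns are dark in control.

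In basal epidermis-like cells the genes of the replication helicase were lower in metformin, while Tyms, Rrm1 and Rrm2, which supply deoxynucleotides, were close to equal or higher. Mcm2 to Mcm7 form the ring that unwinds DNA. Mcm2 (chromosome 6 of GRCm38, 88883474 to 88898780) stood at 19.9 CPM in control against 11.7 CPM in metformin, a ratio of 0.589 (0.506 to 0.686), the lowest of all 39 genes. Mcm3 was at 21.2 and 14.5 CPM, with a ratio of 0.685 (0.594 to 0.790). Mcm4 was at 26.3 and 20.2 CPM in the same order. Mcm6 was at 35.0 and 29.7 CPM, whereas Mcm5 (22.6 and 21.6 CPM) and Mcm7 (36.2 and 33.4 CPM) had intervals of the ratio that included 1. Gins2, a subunit of the same helicase complex, was at 19.4 and 13.4 CPM, with a ratio of 0.690 (0.595 to 0.801). Cdc6, which loads the helicase, was low in both, at 2.45 and 2.15 CPM. The ratios of these 8 genes ran from 0.589 to 0.956, and those of Mcm2, Mcm3, Mcm4, Mcm6 and Gins2 had intervals below 1.

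The other S phase genes differed less or in the opposite direction. Pcna, the sliding clamp of the polymerases, was at 61.0 CPM in control against 58.0 CPM in metformin. Pclaf, which binds Pcna (chromosome 9, 65890237 to 65903266), was at 95.8 and 119 CPM, with a ratio of 1.24 (1.17 to 1.32), the highest of the list. Tyms, the thymidylate synthase, was at 50.4 and 60.6 CPM, with a ratio of 1.20 (1.11 to 1.30). Both subunits of ribonucleotide reductase were close to equal, Rrm1 at 38.6 and 37.6 CPM and Rrm2 at 23.9 and 25.0 CPM. Dut, which removes dUTP, was at 122 and 108 CPM, and Uhrf1, which carries DNA methylation through replication, at 25.7 and 22.8 CPM. Over the list, 3 of 15 genes were higher in metformin, none differed by 2-fold, and the median log2 ratio was -0.17. The share of all 12020 genes measured in the class that were at least 2-fold higher in metformin was 1.6% and at least 2-fold lower 1.06%, with a median log2 ratio of 0.03.

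All 22 mitotic genes were higher in metformin in the same cells, where all genes measured had a median log2 ratio of 0.03. The regulators of mitotic entry included Cdk1, the kinase that drives it, at 63.2 CPM in control against 81.9 CPM in metformin. Its cyclins were Ccna2 at 32.2 and 43.9 CPM, Ccnb1 at 34.0 and 55.3 CPM and Ccnb2 at 40.2 and 55.9 CPM. Plk1, a kinase of centrosome maturation and mitotic entry (chromosome 7, 122159439 to 122169873), was at 9.08 and 17.7 CPM and had the highest ratio, 1.94 (1.63 to 2.33). Aurka, the kinase of spindle poles, was at 12 and 18 CPM, and Tpx2, which activates it, at 26.6 and 38.2 CPM. Aurkb and Birc5, subunits of the chromosomal passenger complex, were at 20.2 and 31.3 CPM and at 97.0 and 147 CPM. Entry kinases and the passenger complex were thus higher by 1.30 to 1.94 times.

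Genes of the kinetochore and checkpoint were higher too. Cenpa, the histone of the centromere, was at 99.0 CPM in control against 138 CPM in metformin. Cenpe, a kinetochore motor, was at 16.4 and 20.3 CPM and had the lowest ratio of the list, 1.24 (1.08 to 1.43). Cenpf was at 46.5 and 75.1 CPM, and Bub1, a checkpoint kinase, at 7.56 and 10.1 CPM. Ube2c and Cdc20, which act in the destruction of cyclins at the anaphase-promoting complex, were at 173 and 272 CPM and at 50.5 and 82.2 CPM. The spindle genes were Kif11, a motor that pushes the poles apart, at 22.4 and 29.2 CPM and Nusap1, which bundles microtubules, at 32.0 and 53.5 CPM.

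The genes of cytokinesis were Anln at 45.0 and 62.7 CPM, Prc1 at 55.2 and 77.9 CPM and Kif23 at 24.0 and 31.8 CPM. Mki67, a coat protein of mitotic chromosomes (chromosome 7, 135689784 to 135716361), was at 54.1 and 78.2 CPM, and Top2a, which untangles DNA (chromosome 11, 98992943 to 99024189), at 90.9 and 119 CPM. Of the 2 genes on neither list, Stmn1 was at 435 and 635 CPM and Hmgb2, a chromatin protein, at 528 and 677 CPM. The mitotic list had a median log2 ratio of 0.51, and no member reached 2-fold. Summed over the list, mitotic genes were at 1051 CPM in control against 1539 CPM in metformin, a ratio of 1.46 (1.44 to 1.49), while S phase genes were at 601 and 577 CPM, a ratio of 0.961 (0.938 to 0.985).

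The shares of cells showed the same pattern. The mitotic share of basal epidermis-like cells was 5.27 points higher in metformin (Newcombe interval 3.14 to 7.36), and the S phase share differed by -0.71 points (-2.72 to 1.26). Of the cells that counted for either phase, 36.8% (32.2 to 41.6) counted for S phase alone in control and 19.8% (16.9 to 22.9) in metformin. Mitotic genes were also higher in metformin, at 104 against 72.7 CPM, in the cells that counted for neither phase. In such cells of other classes they were lower in metformin in T cell-like cells, at 239 against 268 CPM. They were also lower in dendritic cell-like (138 against 158 CPM), macrophage-like (51.5 against 73.5 CPM) and dermal papilla-like cells (38.3 against 43.8 CPM). In the remaining classes with values from both libraries they were higher. The part of free RNA in these values was not tested. Of related genes listed beside the members, 55 of 56 other spindle and kinetochore genes were higher in metformin in basal epidermis-like cells. Their median log2 ratio was 0.48, against 0.03 for all genes measured in the class. Of 40 other replication genes 22 were higher, with a median of 0.02, close to that of all genes. Foxm1, the activator of mitotic genes, was at 7.01 CPM in control against 11.3 CPM in metformin, a ratio of 1.60 (1.30 to 1.99). E2f1 was at 9.08 and 8.19 CPM.

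**Figure D3:**
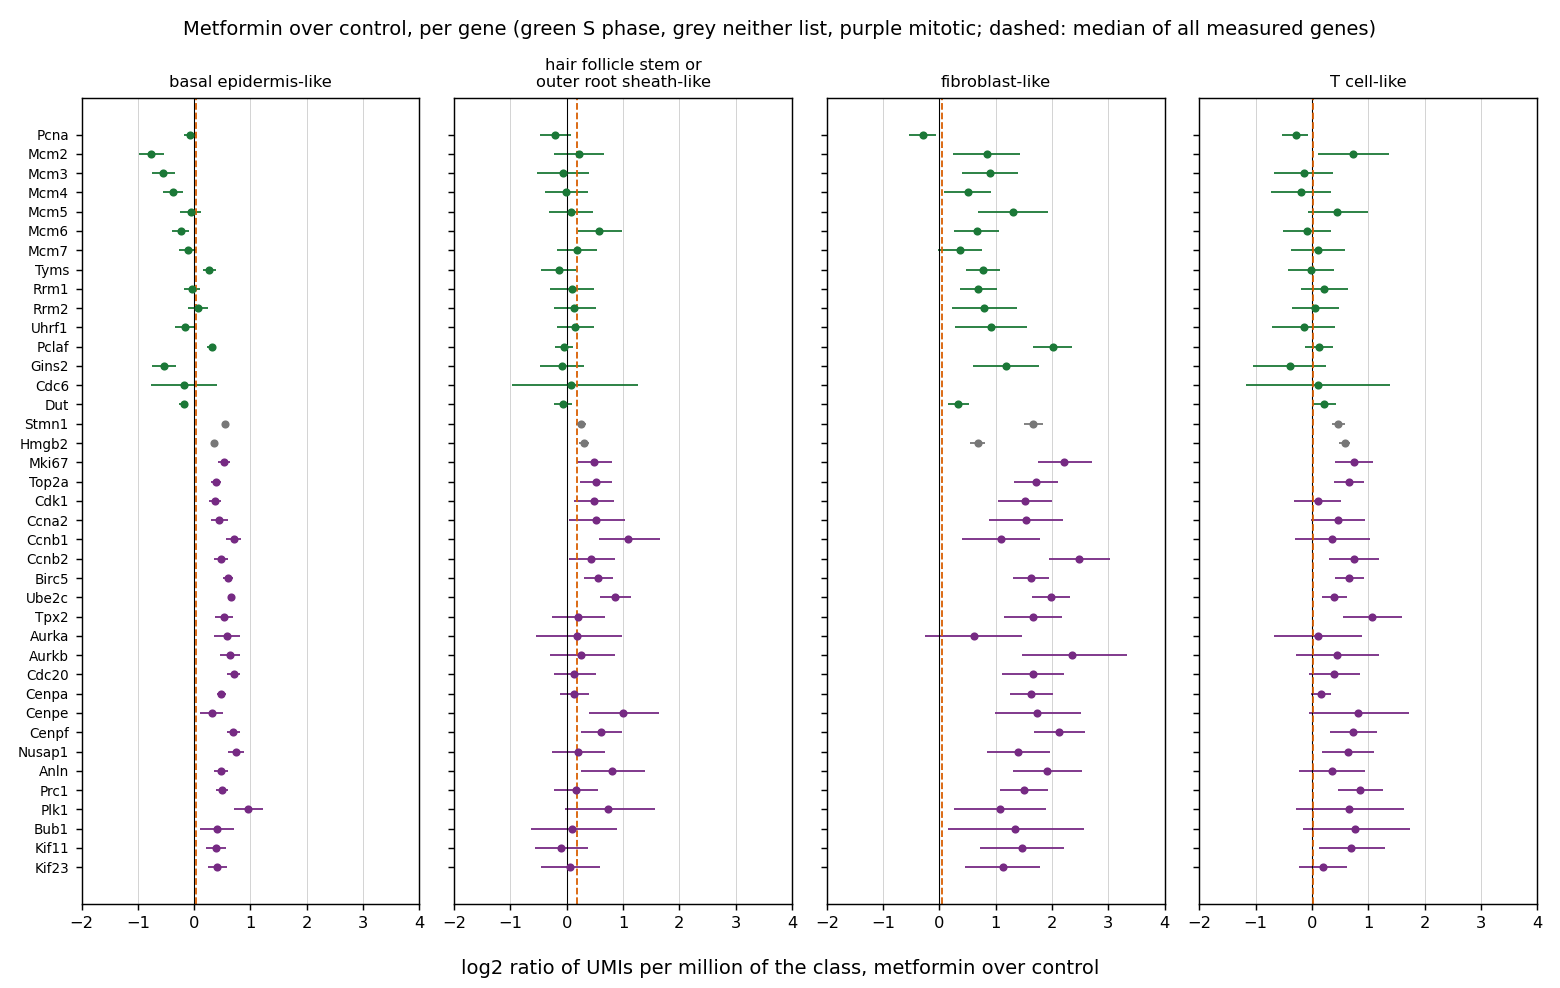
Log2 ratio of each gene, metformin over control, with 95% exact counting intervals, in 4 cell classes (green S phase, grey Stmn1 and Hmgb2, purple mitotic), and the median of all measured genes as a dashed line. In basal epidermis-like cells the 22 mitotic genes lie from 0.31 to 0.96 and the S phase genes from -0.76 to 0.31. In fibroblast-like cells the mitotic genes lie from 0.62 to 2.48.

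Detection in the same cell was described with Mki67 as the reference. In basal epidermis-like cells at 1500 UMIs, 85 control and 210 metformin cells held a Mki67 UMI. Of the other 21 mitotic genes, all were found more often in cells with Mki67 than in the remainder, in both libraries. Their median share was 20% with Mki67 and 2.39% without it in control, and 22.9% and 3.5% in metformin. Ube2c was found in 50.6% and 6.47% of the control cells with and without Mki67, and in 55.2% and 9.16% of the metformin cells. The 15 S phase genes were less tied to Mki67, with medians of 8.24% and 3.05% in control and 7.62% and 2.12% in metformin. Pclaf was at 34.1% and 4.68% in control and 36.7% and 6.44% in metformin. Rrm2 had a ratio at least as high, at 16.5% and 2.01% in control and 11.4% and 1.80% in metformin. Mcm2 was at 4.71% and 2.50% in control and at 1.43% and 1.24% in metformin. These pairs were read in the same cells at the same thinned depth, and no test was made of them.

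**Figure D4:**
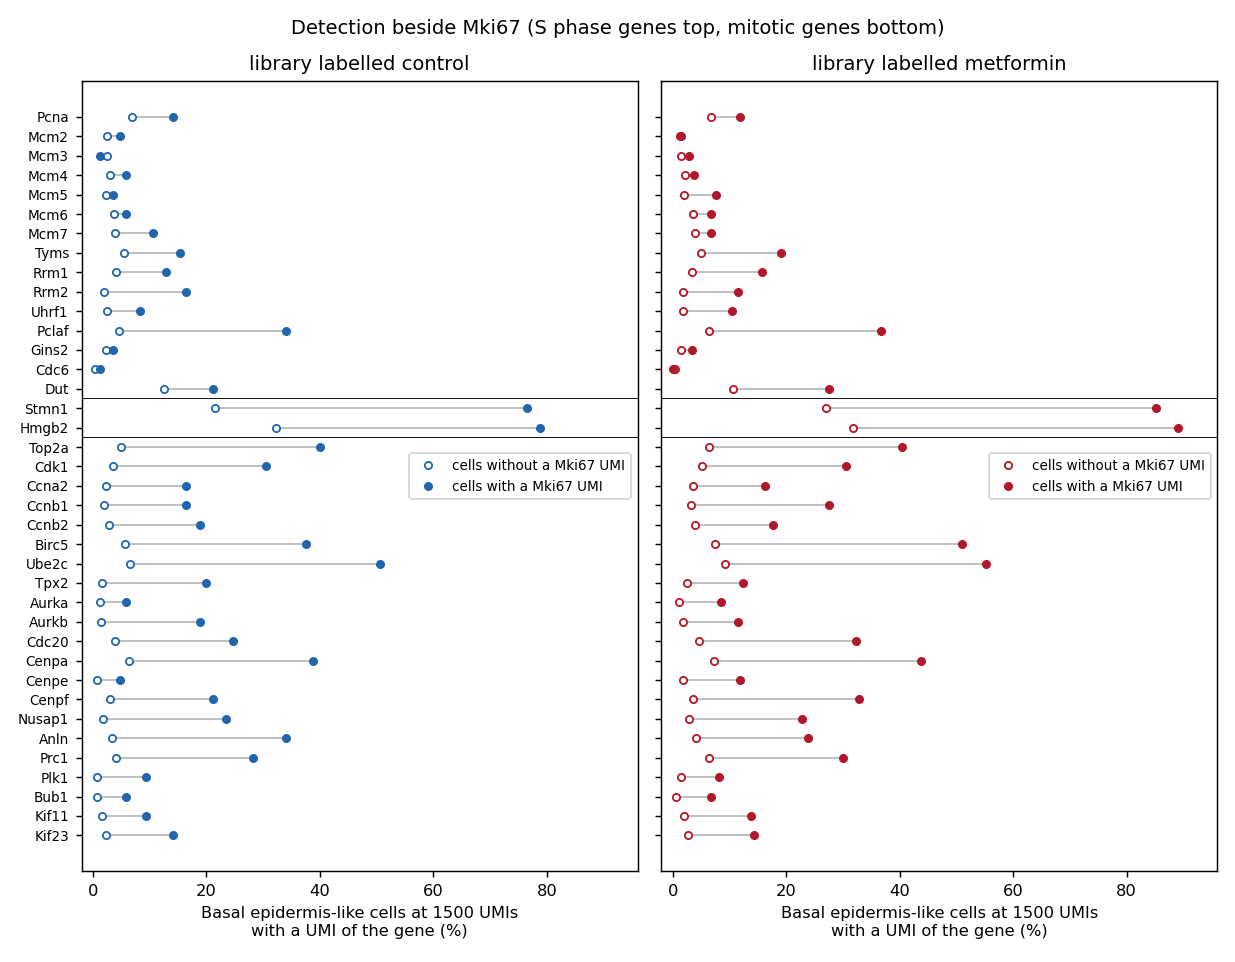
Share of basal epidermis-like cells (%, at 1500 UMIs) that held a UMI of each gene, among cells with a Mki67 UMI (filled, 85 control and 210 metformin cells) and without (open), for the libraries labelled control (left) and metformin (right). Mitotic genes and Pclaf show wide gaps, and Mcm2, Mcm3 and Mcm4 narrow gaps in both libraries.

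In the hair follicle stem or outer root sheath-like class, S phase genes were equal between libraries and mitotic genes were higher in metformin. S phase genes summed to 1178 CPM in control against 1181 CPM in metformin, and mitotic genes to 913 and 1252 CPM, a ratio of 1.37 (1.30 to 1.45). 21 of 22 mitotic genes were higher, and only Ccnb1 passed 2-fold, at 21.8 and 46.4 CPM (ratio 2.13, 1.49 to 3.13). Kif11 was the exception, at 33.0 and 30.7 CPM. Here 8.69% of all genes measured were at least 2-fold higher, and all genes had a median log2 ratio of 0.19, against 0.46 for the mitotic and 0.07 for the S phase list. Mcm6 had the highest ratio of the S phase list, at 43.5 and 65.1 CPM, and Pcna the lowest, at 95.2 and 82.4 CPM. The mitotic share differed by 2.43 points (-3.72 to 7.94).

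In other epithelial classes the mitotic sums were also higher in metformin. Mitotic genes summed to 365 CPM in control against 679.9 CPM in metformin in upper hair follicle-like cells, where 7 of 22 members were at least 2-fold higher against 1.79% of all genes. This direction turned, to a log2 ratio of -0.0865, when cell cycle genes were kept in the clustering. They summed to 568 and 1089 CPM in sebaceous gland-like cells, where 9 of 22 were at least 2-fold higher against 2.71% of all. Ube2c, at 55.5 and 165 CPM, was the most different there. S phase genes in these classes had ratios of 1.22 and 1.13, and both directions turned when cells with over 3000 genes were left out. In spinous epidermis-like cells, where levels were low, mitotic genes summed to 54.9 and 123 CPM, and 14 of 20 measured members were at least 2-fold higher against 1.8% of all. A single cell held 12.5% of those UMIs in control and 11.2% in metformin. The mitotic shares of cells differed less clearly, with intervals that span both directions. The difference was 2.75 points (-0.47 to 6.05) in upper hair follicle-like and 6.14 points (-2.87 to 15.1) in sebaceous gland-like cells. In spinous epidermis-like cells it was 1.07 points (-0.03 to 2.47). Over all keratinocyte-like cells pooled, 10 of 15 S phase and 21 of 22 mitotic genes were at least 2-fold higher in metformin, against 11.9% of all genes, and these pooled ratios include the 1532 inner root sheath-like cells. Mki67 in this pool was at 31.4 CPM in control against 104 CPM in metformin. The pooled direction of the S phase genes was not that within basal epidermis-like cells.

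Within the inner root sheath-like cells of metformin, shares of dividing cells were lower where hair genes were high. Cells were put in ranges, set after the data were seen, by their UMIs (of 1500) of 16 markers of inner root sheath and hair cortex or cuticle. Among 379 cells with none, 72.3% (67.5 to 76.7) counted for S phase and 52.5% (47.3 to 57.6) for mitosis. Among 670 cells with 1 to 2 UMIs the shares were 77.0% and 60.7%, and among 322 cells with 3 to 9 UMIs they were 72.7% and 53.7%. Among 136 cells with 10 to 49 UMIs they were 15.4% (9.82 to 22.6) and 21.3% (14.8 to 29.2). None of 13 cells with at least 50 UMIs counted for either phase, a range of under 20 cells. The ranges differed in depth, with medians of 10631, 10889.5, 9999.5, 8070 and 5947 UMIs before thinning, and the part of depth was not tested. The lower 3 ranges lay close together, and the lower shares began at 10 UMIs. Ranges cut from a score are not cell types.

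**Figure D5:**
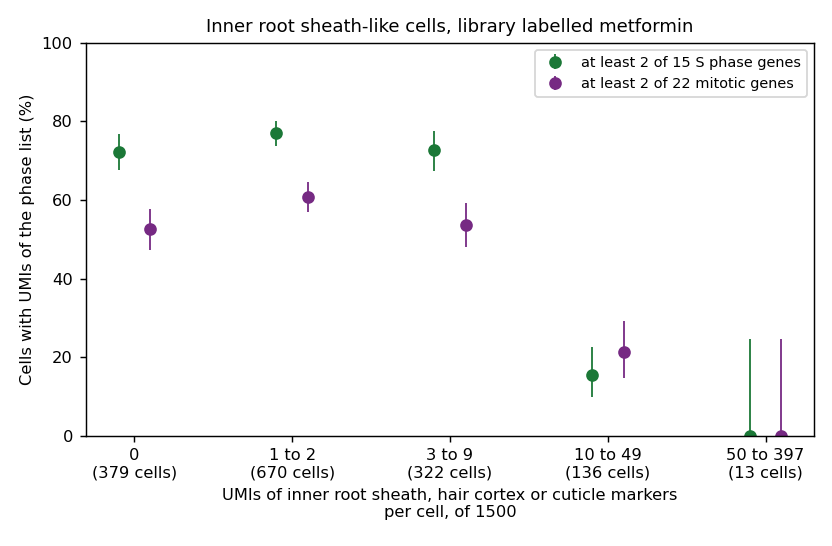
Share of inner root sheath-like cells of the metformin library (%, with 95% exact binomial intervals) that counted for S phase (green) or mitosis (purple), by range of UMIs of 16 hair markers per cell. The share for S phase is over 72% in the 3 lower ranges, 15.4% at 10 to 49 UMIs and 0 of 13 cells above.

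In fibroblast-like cells the mitotic genes were low and higher in metformin. They summed to 96.1 CPM in control (1169 UMIs) and 315 CPM in metformin (1893 UMIs), a ratio of 3.28 (3.05 to 3.53). The log2 ratio of 1.71 became 2.96 with the libraries clustered apart and 1.08 at resolution 2. 21 of 22 members were at least 2-fold higher, against 3.59% of all genes, and the median log2 ratio was 1.63. Ccnb2 had the highest ratio, at 3.29 and 18.3 CPM (5.57, 3.84 to 8.21), and Aurka the lowest, at 2.38 and 3.66 CPM. Mki67 was at 4.36 and 20.3 CPM and Ube2c at 9.29 and 36.6 CPM. These sums rest on few cells: in metformin each mitotic gene was found in 12 to 61 of 1575 cells, and in control in 9 to 57 of 4102 cells. At 1500 UMIs, 0.934% of the metformin cells and 0.316% of the control cells held at least 5 mitotic genes. In the same order the shares were 0.303% and 0.166% in spinous epidermis-like and 1.07% and 0.239% in dermal papilla-like cells. None of 126 granular epidermis-like and 154 vascular smooth muscle or pericyte-like control cells held as many. So few cells cannot set these 2 classes apart from fibroblast-like cells. In fibroblast-like cells that counted for neither phase, mitotic genes were at 51.8 CPM in metformin and 24.0 CPM in control. Keratinocyte transcripts differed in the same direction, with Krt14 at 26.3 to 70.7 CPM in the 5 fibroblast-like clusters of control and at 46.9 to 453 CPM in those of metformin, and their part in these values was not tested. S phase genes in fibroblast-like cells summed to 189 and 281 CPM, with Pclaf at 8.88 and 35.8 CPM and Pcna lower in metformin, at 42.6 and 34.6 CPM.

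In other dermal classes single cells carried much of the sum. Mitotic genes in vascular smooth muscle or pericyte-like cells had 11 UMIs in control and 116 in metformin, of which 35.3% were in 1 cell. In Schwann cell-like cells, 1 cell held 86.9% of the 84 metformin UMIs. In dermal papilla-like cells, 1 cell held 50.6% of the control UMIs and 1 cell 49.9% of the metformin UMIs. In lymphatic endothelium-like cells there was 1 UMI in control and 133 in metformin. Dermal sheath-like cells went the other way. Their mitotic genes summed to 2587 CPM in control and 1170 CPM in metformin, a ratio of 0.452 (0.413 to 0.496). Their S phase genes had a ratio of 0.564 (0.489 to 0.653). The control values rest on 31 cells, and 1 cell held 25.0% of the mitotic UMIs there. In vascular endothelium-like cells, 10.6% (6.18 to 16.6) of 151 metformin cells and 3.16% (0.656 to 8.95) of 95 control cells counted for S phase, and the metformin interval overlapped that of vascular smooth muscle or pericyte-like cells. The counts there were 16 and 3 cells.

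In T cell-like cells the mitotic genes were higher in metformin. They summed to 902 CPM in control against 1261 CPM in metformin, a ratio of 1.40 (1.32 to 1.48). The mitotic share of cells differed by 1.73 points (-1.87 to 5.32), an interval that spans both directions. All 22 members were higher, with a median log2 ratio of 0.64 against 0.02 for all genes measured in the class. Only Tpx2 passed 2-fold, at 19.1 and 40.1 CPM, against 1.97% of all genes measured. Cdk1 and Aurka had the lowest ratio, 1.07. Cenpa in T cell-like cells was at 202 and 225 CPM, levels that in control exceeded those of every other class with at least 50 cells deep enough. S phase genes summed to 732 and 751 CPM, and 8 of 15 were higher, with a median log2 ratio of 0.06, close to that of all genes. These sums include the T cell-like cluster of high UMI count and high Krt14. Without it the log2 ratio was 0.55 (0.45 to 0.65) for mitotic genes, against 0.48 with it, and 0.40 (0.29 to 0.52) for S phase genes, against 0.04 with it. Mcm2 had the highest ratio, 1.66 (1.08 to 2.58), opposite to its direction in basal epidermis-like cells, and Gins2 the lowest, 0.758 (0.481 to 1.19). In dendritic cell-like cells mitotic genes summed to 346 and 521 CPM, and 7 of 16 measured members were at least 2-fold higher against 3.1% of all genes. In macrophage-like cells they summed to 364 and 264 CPM, a direction that turned when doublets were kept, and in Langerhans cell-like cells to 876 and 932 CPM.

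Genes that permit or block entry into the cycle varied along the lineages. Cdkn1a, the inhibitor p21, was higher at each layer of the epidermis, at 292 CPM in basal, 792 CPM in spinous and 1008 CPM in granular epidermis-like cells of control. In metformin the order was the same, at 262, 684 and 834 CPM, but the granular epidermis-like class there had only 26 cells. Krt14 in that class was at 1362 CPM in metformin against 86.3 CPM in control, and the part of such transcripts was not tested. Ccnd2, a D-type cyclin, was highest in the inner root sheath-like class, at 511 CPM in control (31 cells) against 766 CPM in metformin. In basal epidermis-like cells it was at 130 and 136 CPM. Ccnd1, another D-type cyclin, was highest in hair follicle stem or outer root sheath-like cells of metformin, at 275 CPM, against 134 CPM in control. In fibroblast-like cells Cdkn1a was at 472 CPM in control against 218 CPM in metformin, and it was the only 1 of 7 CDK inhibitors there at least 2-fold lower, against 2.55% of all genes. Over all keratinocyte-like cells, Cdkn2b was at 14.3 and 5.48 CPM, and E2f8, a repressor of the E2F family, at 5.34 and 14.4 CPM. Foxm1 was at 4.40 and 13.3 CPM, Tk1, a thymidine kinase of S phase, at 12.4 and 44.9 CPM, and Kif2c, a kinesin of the centromere, at 3.53 and 13.8 CPM in this pool. The pool holds 31 inner root sheath-like cells of control and 1532 of metformin. The part of class make-up in these pooled values was not tested.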

How the data were processed

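Gene-by-barcode matrices of UMI counts were deposited by the authors, made with Cell Ranger 4.0.0 per the file headers against mouse build GRCm38. The extraction label names another species, whereas the gene identifiers are those of mouse. The article given with the series describes another experiment and another pipeline, so none of its methods were applied. No file held values of the authors' own comparisons.

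Barcodes with at least 300 genes, 800 UMIs and at most 8% mitochondrial counts were kept, with no upper limit on genes. Doublets called by Scrublet (scanpy 1.11.5, expected rate 8%) were removed, 3.42% of the kept barcodes in control and 5.93% in metformin. Without 269 cell cycle and histone genes, 2000 variable genes, 30 components, joins of cells sharing at least 3 of 20 neighbours and Leiden clustering (leidenalg 0.10.2, resolution 1) gave 33 clusters. A cluster took the name of the type with the highest mean fold among 27 marker lists, with at least 3 detected markers. Genes with under 20 UMIs in a class, both libraries together, gave no ratio. For shares, 1081 control and 489 metformin cells were too shallow. Exact binomial, Poisson, conditional binomial and Newcombe intervals are at 95%. The computations were tested on simulated data. Intervals used scipy 1.17.1 and components scikit-learn 1.9.0, under numpy 2.4.6 and Python 3.11.15. Gene positions are from GENCODE M21.

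The members and gene lists were chosen with earlier results of these data known. All members are described, each with its levels in basal epidermis-like cells, and for each class those with the highest and lowest ratios. Of the other lists, genes with the largest ratios in keratinocyte-like cells were named. Foxm1 and E2f1 in basal epidermis-like cells, and the cyclins and Cdkn1a by class, were named after their values were seen.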

Additional observations from a re-analysis of the deposited data

How the results depend on the processing

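No paired analysis was possible because each agent had 1 library, and for the same reason none was left out. Of 508 values recomputed under other settings, 375 stayed within their counting interval, 125 moved past it in the same direction and 8 turned. The causes were not tested.

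For the difference in share of cells, metformin minus control in points, the basal epidermis-like S phase value of -0.71 was -3.40 without thinning. The fibroblast-like S phase value of 1.68 was 4.01 at 3000 UMIs, 5.85 without thinning, 0.147 with 1 gene enough and 0.488 at resolution 2. The fibroblast-like mitotic value of 1.92 was 4.81, 4.13 and 4.91 under the first 3 of these and 3.41 with doublets kept. At 3000 UMIs the T cell-like S phase value of 4.06 was 12.5 and the mitotic value of 1.73 was 12.

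For the log2 ratio of summed mitotic genes, basal epidermis-like cells (0.55) gave 0.45 with up to 20% mitochondrial counts, 0.79 with at most 3000 genes per cell, 0.46 with doublets kept, 0.47 with cell cycle genes kept in the clustering, 0.46 with libraries clustered apart and 0.52 relative to the median gene. Hair follicle stem or outer root sheath-like cells (0.46) gave 0.26 with at most 3000 genes, 0.68 with doublets kept, 0.55 with cell cycle genes kept, 0.62 at resolution 2, 0.56 as a mean over cells and 0.27 relative to the median gene. Fibroblast-like cells (1.71) gave 1.86, 2.23, 1.93, 2.04 and 2.96 under the first 5 settings, 1.08 at resolution 2 and 1.44 as a mean over cells. T cell-like cells (0.48) gave 0.35, 0.67 and 0.71 under the first 3.

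The log2 ratios that turned were those of S phase genes in upper hair follicle-like cells, at -0.0508 with at most 3000 genes and -0.0173 with cell cycle genes kept, and of mitotic genes there, at -0.0865 with cell cycle genes kept. S phase genes turned in sebaceous gland-like cells, at -0.11 with at most 3000 genes and -0.0381 as a mean over cells, and in vascular smooth muscle or pericyte-like cells, at -0.0427 with at most 3000 genes. Mitotic genes in macrophage-like cells turned to 0.78 with doublets kept and 0.0767 as a mean over cells. Leaving out the T cell-like cluster of high UMI count was chosen after seeing the data.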
